A study of Mus musculus with 24 samples.

Results

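Polyamine metabolism was followed through 9 genes, Odc1, Srm, Sms, Amd1, Sat1, Smox, Oaz1, Oaz2 and Azin1, which were taken by symbol from the 17017 genes listed for every library. The cells were primary alveolar macrophages, the resident phagocytes of the air spaces, from wild-type BALB/cJ mice, collected 20 h after stimulation. The 8 groups, of 3 libraries each, were untreated cells, 3 groups that received 1 recombinant cytokine (IL-13, IL-17A or IL-33), 3 that received a pair (IL-13 with IL-17A, IL-33 with IL-17A, IL-33 with IL-13) and 1 that received all 3. No group carried a transgene or a deletion. All 9 genes were above 1 TPM, the deposited abundance unit scaled to a common total per library, in at least 3 libraries and were tested. TPM was deposited with a length equal to the whole gene span, introns included, so a TPM below compares libraries for 1 gene and not 1 gene with another.

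Polyamines (putrescine, spermidine and spermine) are small positively charged molecules that bind nucleic acids and are needed for growth and translation. Ornithine decarboxylase, the product of Odc1, makes putrescine from ornithine, which arginase releases from arginine. Decarboxylated S-adenosylmethionine, made by the product of Amd1, donates the aminopropyl groups with which spermidine synthase (Srm) and spermine synthase (Sms) extend the chain. Sat1 acetylates spermidine and spermine for export or breakdown, and Smox oxidises spermine back to spermidine. Antizymes, encoded by Oaz1 and Oaz2, bind ornithine decarboxylase, direct it to the proteasome and block polyamine uptake, and the antizyme inhibitor encoded by Azin1 sequesters antizymes. Spermidine is also the source of hypusine, the modified lysine of the translation factor eIF5A. In macrophages arginase, the enzyme upstream of this pathway, is a known target of IL-4 and IL-13.

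The clearest change was the addition of IL-13. With IL-13, the synthesis genes Odc1, Srm and Amd1 rose and the oxidase gene Smox fell, and for each of these 4 genes the 12 libraries with IL-13 and the 12 without did not overlap. Such a separation was found in 15.1% of the 13215 tested genes (6.18% higher and 8.87% lower). Averaged over the 4 backgrounds to which IL-13 was added (untreated, IL-33, IL-17A, and IL-33 with IL-17A), 8 of the 9 genes passed the limma test (adjusted p under 0.05), against 50.9% of all tested genes. Of these, 5 were higher (Odc1, Srm, Amd1, Oaz1 and Azin1) and 3 lower (Smox, Sat1 and Oaz2), where 20% of all genes were higher and 30.9% lower. The split over all called genes moved with scaling, from 39.3% higher as deposited to 49.8% higher with median-ratio size factors, and the 5 and 3 of the polyamine genes kept their signs. The median size of the change in either direction was 0.28 on the log2 scale for the 9 genes and 0.16 for all tested genes. The within-group spread of the 9 genes was small, at percentiles 3.0 (Oaz1) to 34.7 (Smox) of all tested genes. A small spread lets a small change pass the test, so the share called is not a measure of size.

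To show what lies upstream of genes that moved in opposite directions, the RefSeq promoter sequence (GRCm38.p6, gene strand, 5′ to 3′) is given for Odc1 and Amd1, which rose, and Sat1, which fell. Capitals mark GC boxes, GGGCGG or its reverse complement CCGCCC. Odc1 is at chr12:17544623-17544793 (plus strand), Amd1 at chr10:40302189-40302438 (minus strand) and Sat1 at chrX:155216450-155216699 (minus strand), each cut to the bases outside the GENCODE M21 gene.
Odc1: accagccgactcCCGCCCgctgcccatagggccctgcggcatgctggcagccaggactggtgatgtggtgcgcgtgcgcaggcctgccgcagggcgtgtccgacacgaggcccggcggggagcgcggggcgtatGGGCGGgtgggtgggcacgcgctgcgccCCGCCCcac
Amd1: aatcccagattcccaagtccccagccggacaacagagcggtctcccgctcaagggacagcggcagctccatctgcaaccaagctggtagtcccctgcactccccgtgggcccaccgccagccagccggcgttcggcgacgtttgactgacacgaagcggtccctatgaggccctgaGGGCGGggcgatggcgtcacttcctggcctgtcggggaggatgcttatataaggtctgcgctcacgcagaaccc
Sat1: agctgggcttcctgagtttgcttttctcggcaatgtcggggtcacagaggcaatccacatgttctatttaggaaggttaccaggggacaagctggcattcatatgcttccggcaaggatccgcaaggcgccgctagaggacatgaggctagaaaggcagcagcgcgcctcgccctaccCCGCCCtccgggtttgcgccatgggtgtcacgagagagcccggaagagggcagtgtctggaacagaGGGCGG
The Odc1 stretch holds 3 GC boxes in 171 bases, with 77.2% G or C. Amd1 has 1 GC box and 64.4% G or C, and Sat1 has 2 and 59.6%, both over 250 bases. A promoter was found for 7 of the 9 genes, Srm and Azin1 being the others. Over the 250 bases upstream of each RefSeq start, read on both strands, 5 of these 7 genes (Odc1, Amd1, Sat1, Oaz2 and Smox) held a GC box in their only window, Sms held 4 in 1 of its 2 windows, and Oaz1 held none. Of the genes that fell, Smox held 6, Oaz2 3 and Sat1 2, and of those that rose, Odc1 held 4 and Amd1 1. Among all 32851 windows of the same length the share with a GC box was 32.7%. The E-box CACGTG, a form bound by Myc, was in 1 of the 8 windows of these genes (Sms, 196 bases upstream) and in 6.02% of all windows. Neither TTC followed by 4 bases of any kind and GAA, the spaced palindrome bound by STAT6, nor TATAAA was in any of the 8 windows, with shares of 5.85% and 12.4% among all windows. These matches describe the letters of the windows only.

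Odc1 (ENSMUSG00000011179, chr12:17544794-17551505 on mm10, plus strand, protein coding) encodes the enzyme that makes putrescine. Untreated macrophages had 115.5, 126.8 and 135.2 TPM, IL-33 gave 125.3, 126.2 and 134.8, IL-17A gave 125.1, 120.6 and 127.2, and IL-33 with IL-17A gave 134.1, 131.1 and 131.5. With IL-13 alone the values were 183.4, 193.4 and 185.5 TPM, with IL-13 and IL-17A 188.0, 195.0 and 192.2, with IL-33 and IL-13 189.8, 201.1 and 200.2, and with all 3 cytokines 195.6, 169.4 and 193.5. Every library with IL-13 was above every library without it, and within each set of 4 groups the neighbours in the order of means overlapped. Odc1 rose 1.49-fold (95% interval 1.43 to 1.55, limma adjusted p = 1.03e-12) averaged over backgrounds. Its log2 fold change was 0.57 on untreated cells, 0.61 on IL-33, 0.62 on IL-17A and 0.49 on IL-33 with IL-17A, with limma adjusted p of 1.01e-06 or smaller in each. The annotation places the snoRNA gene Gm22748 inside Odc1 on the same strand.

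Amd1 (ENSMUSG00000075232, chr10:40287458-40302186, minus strand, protein coding) encodes S-adenosylmethionine decarboxylase, which supplies the aminopropyl donor. Its values without IL-13 were 65.84, 78.22 and 72.27 TPM in untreated cells, 68.56, 70.14 and 72.67 with IL-33, 72.64, 70.35 and 70.75 with IL-17A, and 73.98, 73.86 and 74.38 with both. They were 98.92, 94.43 and 92.96 TPM with IL-13 alone, 97.85, 93.66 and 92.46 with IL-13 and IL-17A, 91.36, 99.28 and 99.58 with IL-33 and IL-13, and 90.93, 85.23 and 94.46 with all 3. The lowest library with IL-13 (85.23) was above the highest without (78.22). Amd1 rose 1.31-fold (95% interval 1.26 to 1.36, limma adjusted p = 2.37e-10), and it was called on each of the 4 backgrounds, with a log2 fold change of 0.28 (all 3 cytokines against IL-33 with IL-17A) to 0.45 (IL-33 background). Amd2, a near-identical copy of Amd1 that may share its reads, moved from a mean of 22.3 to 29.9 TPM (limma adjusted p = 3.68e-05), so the division of reads between the copies is uncertain.

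Srm (ENSMUSG00000006442, chr4:148591503-148594993, plus strand, protein coding) encodes spermidine synthase. Untreated cells had 166.4, 158.2 and 174.7 TPM, IL-33 176.9, 174.5 and 190.5, IL-17A 173.1, 184.0 and 178.1, and IL-33 with IL-17A 174.7, 168.9 and 165.5. IL-13 alone gave 274.9, 247.0 and 269.2 TPM, IL-13 with IL-17A 257.6, 270.1 and 277.2, IL-33 with IL-13 292.7, 286.1 and 275.5, and all 3 cytokines 291.8, 304.2 and 280.6. The 12 libraries with IL-13 stood apart from the 12 without, and the groups within each set overlapped with their neighbours. Srm had the largest change of the 9 genes, 1.59-fold (95% interval 1.54 to 1.65, limma adjusted p = 1.62e-14), and its size was above that of 94.7% of all tested genes. The log2 fold change ran from 0.59 on IL-17A to 0.78 on IL-33 with IL-17A, with limma adjusted p of 1.59e-08 or smaller.

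Sms (ENSMUSG00000071708, chrX:157443855-157492287, minus strand, protein coding), which makes spermine from spermidine, did not follow Srm. Libraries without IL-13 spanned 7.72 to 10.1 TPM with a median of 8.21, and those with IL-13 spanned 7.46 to 9.38 with a median of 9.09. The sets overlapped, and the averaged log2 fold change was 0.08 (95% interval 0.00 to 0.15, limma adjusted p = 0.0743). Sms was called in none of the 4 backgrounds, but voom on recovered reads called it on untreated cells (0.20, limma adjusted p = 0.0429). The averaged value passed the threshold when libraries were rescaled by median-ratio size factors (0.12, limma adjusted p = 0.00384) and with limma's voom on recovered reads (0.14, limma adjusted p = 0.00219). It also passed when IL-13 replicate 2 (limma adjusted p = 0.046), IL-17A replicate 3 (0.014) or replicate 2 of all 3 cytokines (0.0126) was left out, and without untreated replicate 1, IL-17A replicate 2 and replicate 2 of all 3 cytokines together (0.0277).

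**Figure D1:**
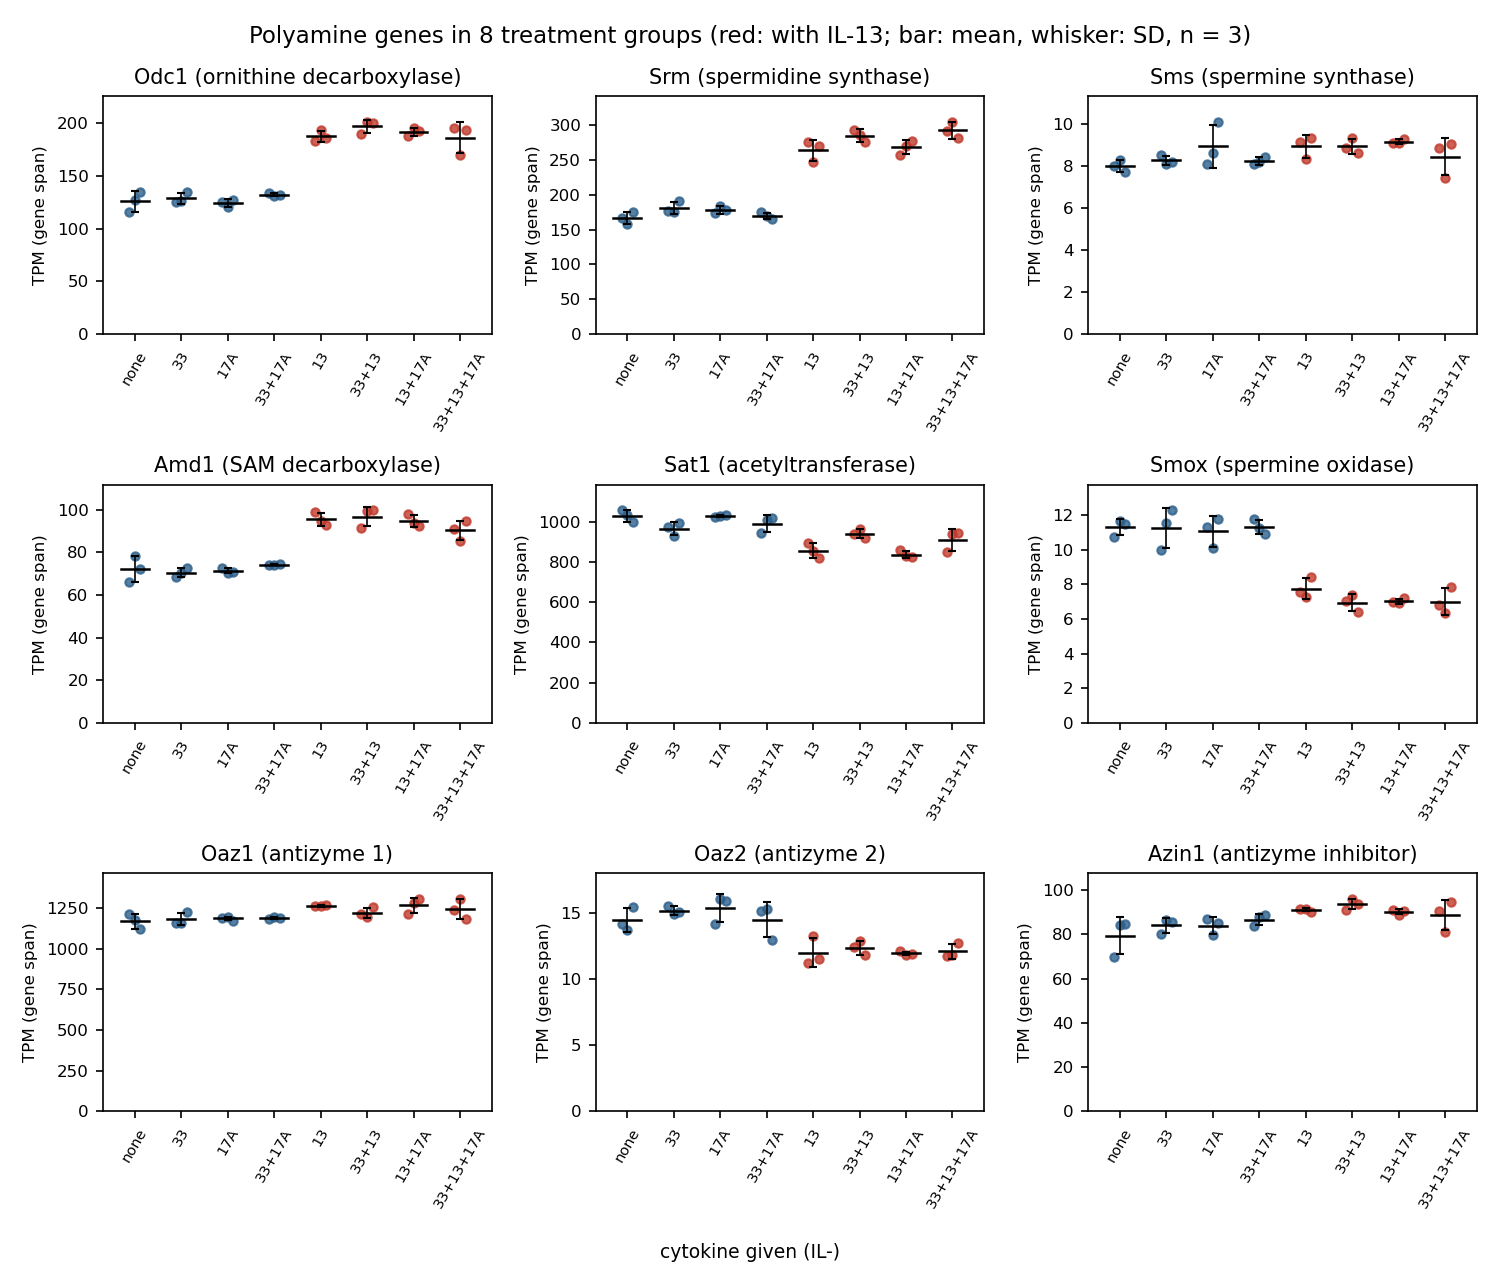
Deposited TPM of the 9 polyamine genes (vertical axes, each from 0) in the 8 treatment groups (horizontal axis), with 1 point per library (red with IL-13, blue without), a bar at each mean and a whisker for the SD (n = 3). For Odc1, Srm and Amd1 the lowest library with IL-13 is above the highest without it, for Smox the highest with IL-13 is below the lowest without it, and Sms stays between 7.46 and 10.1 TPM throughout.

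Both catabolic genes were lower with IL-13, by different amounts. Smox (ENSMUSG00000027333, chr2:131491496-131525922, plus strand, protein coding), the spermine oxidase gene, was at 10.77, 11.66 and 11.51 TPM in untreated cells, 10, 11.54 and 12.28 with IL-33, 11.35, 10.09 and 11.81 with IL-17A, and 11.78, 11.26 and 10.93 with both. It was at 7.55, 7.29 and 8.46 TPM with IL-13 alone, 6.96, 6.94 and 7.21 with IL-13 and IL-17A, 7.04, 7.42 and 6.41 with IL-33 and IL-13, and 6.82, 6.34 and 7.84 with all 3. The highest library with IL-13 was below the lowest without it. The libraries of IL-13 alone did not overlap with those of IL-13 and IL-17A. The difference on adding IL-17A to IL-13 was -0.12 on the log2 scale (95% interval -0.29 to 0.05). Smox was not called in that comparison, where 0% of all genes were called. Smox fell by 0.58 on the log2 scale, a level 1.497-fold lower (limma adjusted p = 3.41e-10), and it was called in all 4 backgrounds with log2 fold changes of -0.49 to -0.63. Its libraries held a median of 316 recovered reads.

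Sat1 (ENSMUSG00000025283, chrX:155213132-155216449, minus strand, protein coding) encodes the acetyltransferase that starts the back-conversion and export of polyamines. Untreated macrophages had 1055, 1031 and 995 TPM and IL-17A gave 1023, 1026 and 1032. With IL-33 the values were 972, 929 and 994, and with IL-33 and IL-17A 942, 1008 and 1020. IL-13 alone gave 893, 852 and 819 TPM and IL-13 with IL-17A 857, 826 and 823, which are below all 12 libraries without IL-13. Where IL-33 was present beside IL-13 the levels were 937, 964 and 920, and with all 3 cytokines 847, 938 and 944, so that 4 of these 6 libraries reached the range of libraries without IL-13.

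The averaged change of Sat1 was -0.18 (limma adjusted p = 5.37e-07). It differed between backgrounds, with -0.27 on untreated cells (adjusted p = 6.1e-05, limma) and -0.30 on IL-17A (1.64e-05), against -0.04 on IL-33 (adjusted p = 0.612) and -0.12 on IL-33 with IL-17A (0.031). The interaction of IL-13 and IL-33, averaged over the presence of IL-17A, was 0.20 on the log2 scale (95% interval 0.11 to 0.29, limma adjusted p = 0.00751), and Sat1 was the only one of the 9 genes called in it, beside 3.57% of all genes. Leaving out any 1 of the 24 libraries kept the interaction between 0.18 and 0.23 and called. The fall on IL-33 with IL-17A was less firm, since its call was lost under median-ratio scaling (-0.02, adjusted p = 0.853, limma), under voom (-0.02, 0.837), in a fit of the groups compared alone (0.208), and without IL-33 with IL-17A replicate 2 (limma adjusted p = 0.107) or 3 (0.123) or replicate 1 of all 3 cytokines (-0.07, 0.175). Sat1 had a median of 3190 recovered reads per library.

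**Figure D2:**
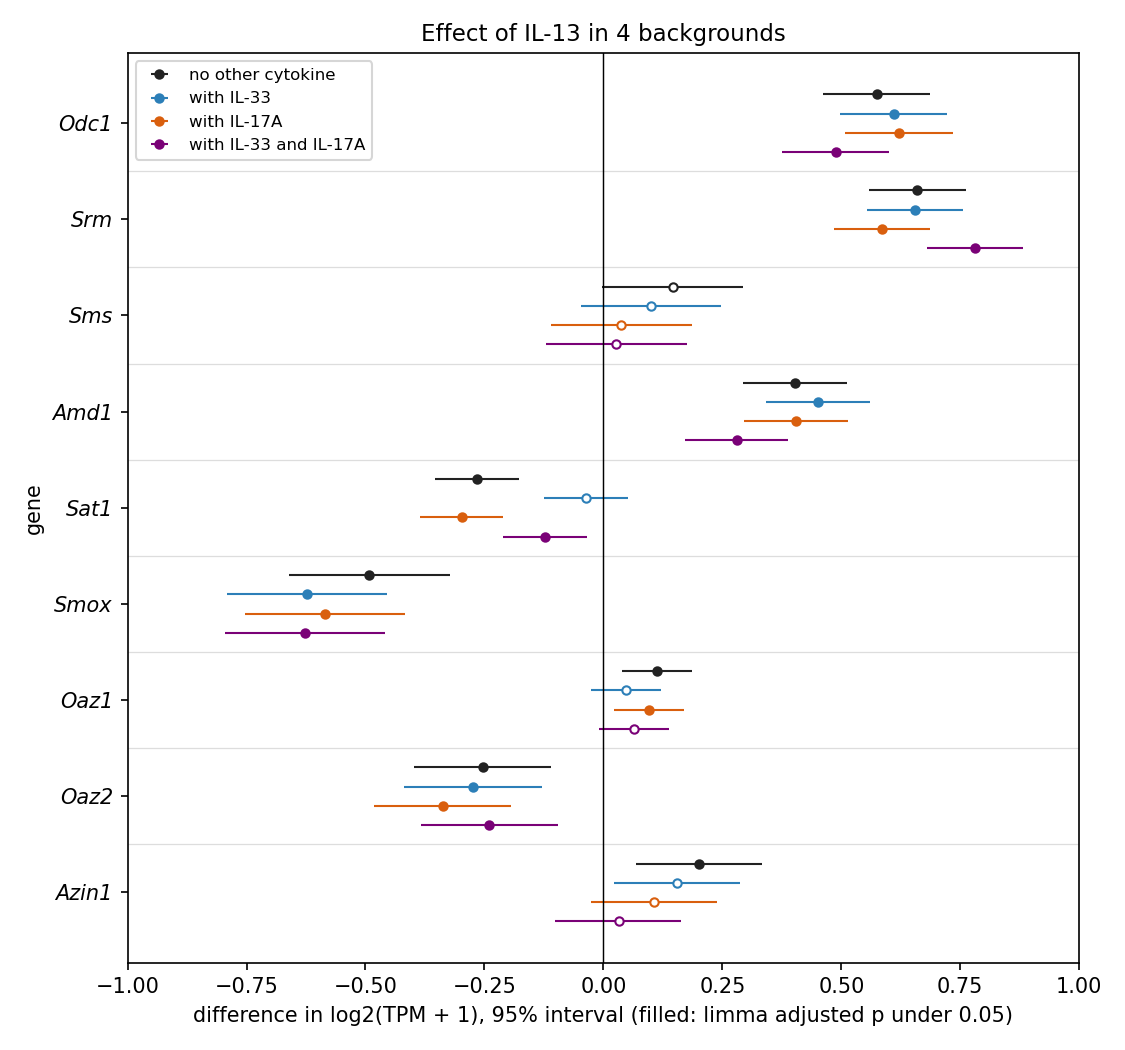
Difference in log2(TPM + 1) on adding IL-13 to each of the 4 backgrounds (horizontal axis) for the 9 genes (vertical axis), with 95% intervals from limma. Srm, Odc1 and Amd1 lie to the right of 0 and Smox and Oaz2 to the left in every background, while Sat1 is at -0.27 and -0.30 without IL-33 and at -0.04 and -0.12 with it.

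The regulators of ornithine decarboxylase moved less than Odc1 itself. Oaz1 (ENSMUSG00000035242, chr10:80826656-80829290, plus strand, protein coding), the main antizyme, had 1213, 1175 and 1121 TPM in untreated cells and 1260, 1262 and 1271 with IL-13 alone. Over all libraries it spanned 1121 to 1224 TPM without IL-13 and 1184 to 1306 with it, and 8 of the 12 libraries with IL-13 were above all those without. The averaged rise was 0.08 (limma adjusted p = 0.00077), and it was the most even of the 9 genes, with a within-group SD of 0.04 on the log2 scale. On single backgrounds Oaz1 was called on untreated cells (0.11, adjusted p = 0.0197, limma) and on IL-17A (0.09, adjusted p = 0.0475) only. The first of these was lost without untreated replicate 3 (limma adjusted p = 0.118) or IL-13 replicate 3 (0.0577), under median-ratio scaling (0.133) and voom (0.0899), and in a fit of the groups compared alone (0.0539). The second was lost in most fits that left out 1 library, with a limma adjusted p of up to 0.194, under median-ratio scaling (0.141) and voom (0.093), with no filter (0.0614), and in a fit of the groups compared alone (0.0666). Leaving out replicate 3 of all 3 cytokines brought a call on IL-33 with IL-17A (limma adjusted p = 0.0378). Reads shared with the processed copy Oaz1-ps, at 28.1 to 104.3 TPM over all 24 libraries, and with Mir1982, which lies inside the gene, could not be separated.

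Oaz2 (ENSMUSG00000040652, chr9:65668001-65690300, plus strand, protein coding), the second antizyme gene, moved the other way. It had 14.23, 13.73 and 15.51 TPM in untreated cells and 11.22, 13.25 and 11.55 with IL-13 alone, and 11 of the 12 libraries with IL-13 (11.2 to 13.3) were below all those without (13.01 to 16.1). Its averaged change was -0.28, or 1.21-fold lower (limma adjusted p = 1.36e-06), and it was called in all 4 backgrounds, from -0.24 to -0.34. The call on untreated cells was lost without untreated replicate 3 (limma adjusted p = 0.0508) and in a fit of the groups compared alone (0.0735). That on IL-33 with IL-17A was lost without replicate 1 (adjusted p = 0.0508, limma) or 2 (0.0648) of IL-33 with IL-17A. It was also lost under median-ratio scaling (-0.14, limma adjusted p = 0.159) and voom (-0.16, 0.153), and in a fit of the groups compared alone (0.134).

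Azin1 (ENSMUSG00000037458, chr15:38487427-38519266, minus strand, protein coding), the antizyme inhibitor gene, was at 69.55, 84.06 and 84.51 TPM in untreated cells and 91.43, 91.49 and 90.18 with IL-13 alone. Across all groups it spanned 69.6 to 88.5 TPM without IL-13 and 81.1 to 95.9 with it, and 11 of the 12 libraries with IL-13 were above all those without. The averaged rise was 0.12 (limma adjusted p = 0.00275). In single backgrounds only that on untreated cells was called (0.20, adjusted p = 0.0205, limma). It rested on untreated replicate 1, the low library, without which it was 0.11 (0.141), and on IL-13 replicates 1 and 2 (0.0545 and 0.0547 without them). It was also lost in a fit of the groups compared alone (limma adjusted p = 0.127). Without untreated replicate 1 the rise on IL-33 was called (limma adjusted p = 0.0215), as it was without that library, IL-17A replicate 2 and replicate 2 of all 3 cytokines together (0.00135). With median-ratio scaling the rise was called on IL-33 (0.000756), IL-17A (0.00266) and IL-33 with IL-17A (0.00597), and with voom on the same 3 (0.00146, 0.00336 and 0.0102). Azin1 overlaps Mir6951 and the antisense gene Gm49077, and the handling of strand is not given in the sources used here, so reads of these partners cannot be told from its own.

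The number of the 9 genes called was counted on each background, and the differences between these counts were not tested. IL-13 changed 8 on untreated cells (5 higher, 3 lower), where 29.8% of all genes were called (14.1% higher, 15.7% lower). On IL-17A it changed 7 (4 higher, 3 lower), beside 29.8% of all genes (12.2% higher, 17.6% lower). On IL-33 with IL-17A it changed 6 (3 higher, 3 lower), beside 32.7% (11% higher, 21.7% lower), and on IL-33 it changed 5 (3 higher, 2 lower), beside 23.9% (11.2% higher, 12.8% lower). The 4 genes Odc1, Srm, Amd1 and Smox were called with the same sign in all of them. Comparisons on different backgrounds have no library in common.

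IL-33 and IL-17A changed none of the 9 genes past the limma threshold in any of 8 comparisons, and voom on recovered reads also called 0 of 9 in each. For IL-33 on untreated cells, 0% of all genes were called and 484 of them had an unadjusted p under 0.05, among them 2 of the 9, Srm and Sat1. On IL-13, IL-17A, and IL-13 with IL-17A the shares called among all genes were 2.57%, 0.00757% and 3.55%, and 2, 0 and 2 of the 9 had an unadjusted p under 0.05 (Srm and Sat1 again). IL-17A gave 0% in each of its 4 comparisons, with 469 genes at an unadjusted p under 0.05 on untreated cells, 373 on IL-13, 497 on IL-33 and 826 on IL-33 with IL-13, and none of the 9 among them. The widest fitted differences on the log2 scale were 0.14 for Sms (IL-17A on untreated cells) and -0.14 for Smox (IL-33 on IL-13). The 95% intervals of these comparisons reached a 1.22-fold rise (Sms) and a 1.24-fold fall (Smox) at their widest. The Sat1 difference was 0.14 when IL-33 was added to IL-13 (unadjusted p = 0.00392, limma adjusted p = 0.108) and 0.12 when it was added to IL-13 with IL-17A (0.00948, 0.147), and both reached the threshold without replicate 1 of all 3 cytokines (limma adjusted p = 0.0474 and 0.0226). None of the 9 genes was called in the interactions of IL-13 with IL-17A or of IL-33 with IL-17A, where 0% of all genes were called and 665 and 409 had an unadjusted p under 0.05, and voom called 1 and 0 genes.

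**Figure D3:**
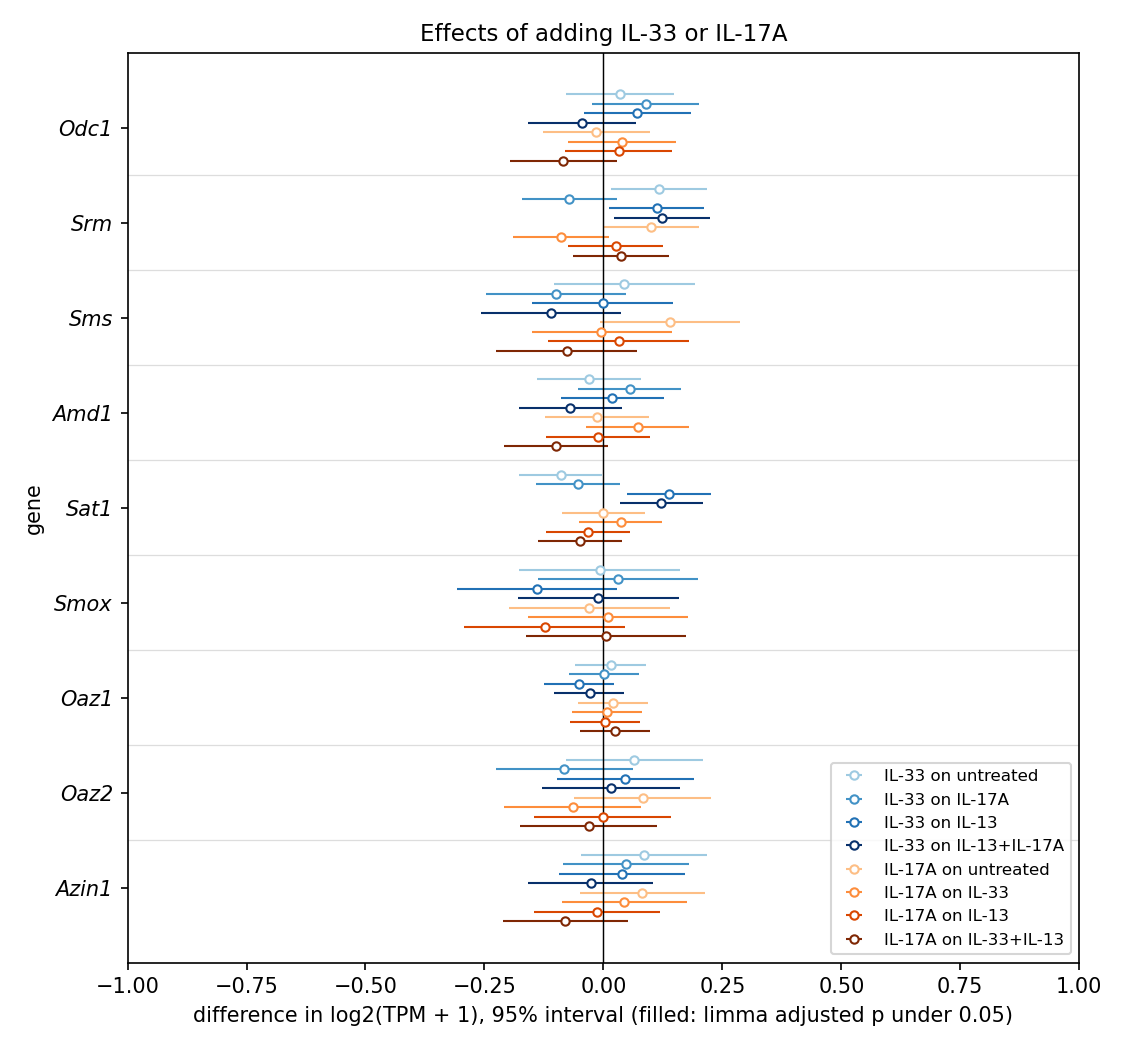
Difference in log2(TPM + 1) on adding IL-33 or IL-17A to each of 4 backgrounds (horizontal axis) for the 9 genes (vertical axis), with 95% intervals from limma. All fitted differences lie within 0.14 of 0, and Sat1 on adding IL-33 changes from negative without IL-13 (-0.09 on untreated cells) to positive with it (0.14).

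To compare levels between genes, recovered reads were divided by the summed exon length and scaled to TPM per exon length. That length joins all annotated exons of a gene, 2558 bases of a 2635-base span for Oaz1 and 2774 of 3318 for Sat1. It can exceed the length of the transcripts present, which understates a level. The SDs below do not cover this, so the order of genes is approximate. In untreated cells Sat1 (412 ± 17.1, SD, n = 3) and Oaz1 (404 ± 20.8) were the highest and did not differ beyond their spread. Azin1 (135 ± 12.8) and Srm (122 ± 6.15) followed and also overlapped within 1 SD, and then came Amd1 (100.5 ± 7.52) and Odc1 (83.1 ± 5.50). The lowest were Oaz2 (36.2 ± 2.18), Smox (33.5 ± 0.973) and Sms (21.6 ± 0.831). With IL-13 alone Srm (190.4 ± 10.5) stood above Azin1 (153 ± 0.985), and Odc1 reached 122 ± 3.54, near the level of Srm in untreated cells.

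Genes that supply or use the pathway were taken from a list of 32, of which 29 were in the tables and 28 were tested. Averaged over backgrounds, IL-13 raised 15 and lowered 9 of the 28. Of all tested genes 50.9% were called, 20% higher and 30.9% lower, so the share lowered was near that over all genes. The median log2 fold change was 0.12, beside -0.05 for all genes as deposited. With median-ratio scaling the median of all genes was -0.007. Without Arg1, which passed the filter only through the groups with IL-13 and so had to differ, these counts were 14 of 27 higher and 9 lower. In arginine and ornithine supply, 4 other tested genes all rose. Slc7a2, an arginine transporter, went from a mean of 175 to 437 TPM (log2 fold change 1.31, limma adjusted p = 6.42e-13), and Slc7a1, another, from 7.39 to 11.9 TPM (0.62). Arg2, the mitochondrial arginase, rose from 33.6 to 47.5 TPM (0.49), and Oat, ornithine aminotransferase, from 76.4 to 101.3 (0.40). Arg1, the cytosolic arginase, was at 0 to 0.0924 TPM without IL-13 and 0.576 to 1.66 with it, with a median of 4 recovered reads over the 24 libraries. Azin2, related to Azin1, stayed below the filter at 0 to 0.0716 TPM without IL-13 and 0.169 to 0.650 with it.

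Among genes that use spermidine, Eif5a, which carries hypusine, rose from 1103 to 1603 TPM (log2 fold change 0.54, limma adjusted p = 5.7e-18) and Dhps, the first enzyme of hypusine formation, from 134 to 162 TPM (0.27). Dohh, the second enzyme, had 163 TPM without and 168 with IL-13 and was not called (adjusted p = 0.214, limma), and Eif5a2, the second eIF5A gene, fell from 13.8 to 9.30 TPM (-0.53). In the breakdown branch Paox, the acetylpolyamine oxidase gene, was lower on average, at 6.53 TPM without IL-13 and 5.65 with it (-0.18, adjusted p = 0.0102, limma). Paox was not called in any single background, and on IL-33 its means were 5.98 TPM without IL-13 and 6.06 with it. Of the 12 libraries with IL-13, 11 lay inside the range of those without. Sat2 was not called. Myc, a transcription factor known to act on Odc1, rose from 43.4 to 116 TPM (1.40, limma adjusted p = 1.62e-16). Its partner Max was not called, and the Max-binding repressors Mnt (-0.39) and Mxi1 (-0.29) fell.

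Genes of S-adenosylmethionine supply and methylthioadenosine salvage, which recycles the by-product of Srm and Sms, were split. Mat2a, which makes S-adenosylmethionine, rose from 265 to 309 TPM (log2 fold change 0.22, limma adjusted p = 3.54e-06) and its regulatory partner Mat2b fell (-0.14). The salvage genes Mtap (0.13), Mri1 (0.10) and Enoph1 (0.08) rose and Adi1 (-0.28) and Apip (-0.12) fell, and Ahcy was not called. Of the carriers, Atp13a3 (0.36) and Slc3a2 (0.15) rose and Atp13a2, a lysosomal polyamine exporter, fell from 457 to 339.9 TPM (-0.43), as did Slc18b1 (-0.11). The calls of Mri1, Apip, Enoph1 and Slc18b1 were lost in 16, 16, 15 and 12 of the 24 fits that left out 1 library.

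**Figure D4:**
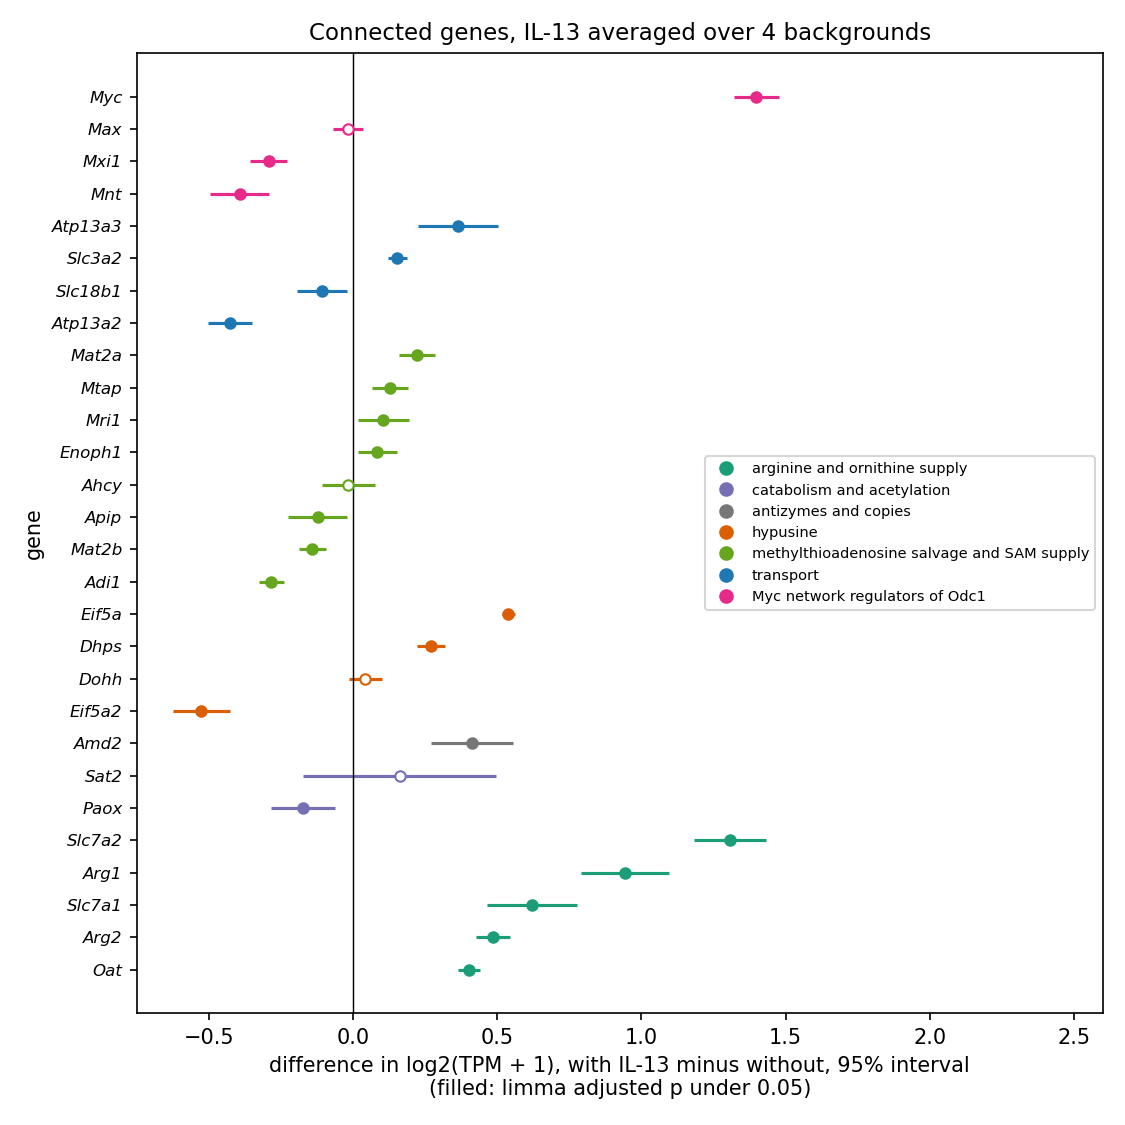
Difference in log2(TPM + 1) between libraries with and without IL-13, averaged over 4 backgrounds (horizontal axis), for 28 connected genes (vertical axis) coloured by role, with 95% intervals from limma and filled points where the adjusted p is under 0.05. The 5 genes of arginine and ornithine supply lie between 0.40 and 1.31 (Arg1 among them, which passed the filter only through the groups with IL-13), Myc is at 1.40, and Eif5a2 at -0.53 is the lowest.

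The genes closest to each of the 9 in their pattern over the 24 libraries were found by Pearson's r of log2(TPM + 1) among 7797 genes, as a description. For Odc1 they were Hyou1 (r = 0.991), Calu (0.990) and Ddhd1 (0.990), for Srm Sdf2l1 (0.985), Psmb10 (0.985) and Creld2 (0.984), and for Amd1 Ankrd40 (0.983), Dnajc3 (0.981) and Net1 (0.980). Smox was closest to Als2cl (0.973), Gnai2 (0.972) and Vopp1 (0.969). All of these values were taken over libraries with and without IL-13 together. Sat1 was closest to Il10rb (0.918), Dhrs3 (0.917) and Trem2 (0.911), Oaz2 to Cdkn1c (0.907), Carhsp1 (0.906) and Snap47 (0.904), and Azin1 to Far1 (0.929), Mlec (0.918) and Pi4ka (0.914). The values were lower for Oaz1, with Hint1 (0.855), Mt1 (0.852) and Rpl8 (0.846), and for Sms, with Nup50 (0.755) and G3bp1 (0.728).

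Recovered reads came to 9.13 to 12.89 M per library. The labelled cell type was checked with 10 alveolar macrophage markers, of which Itgax (1552 to 2524 TPM) and Fabp5 (1379 to 2245) were abundant in all 24 libraries and Marco was at 0.149 to 0.799 TPM. Of the 9 tested, 6 were higher and 3 lower (Siglecf, Fabp5 and Mertk) with IL-13. The shares over all tested genes were 20% higher and 30.9% lower. Siglecf had a median of 297 TPM with IL-13 and 532 without. Car4, 1 of the 6, was at 0 to 0.279 TPM without IL-13 and passed the filter only through groups with it. The summed level was 11390 to 13830 TPM with IL-13 and 5145 to 5518 without. Most of that difference came from Chil3 (medians of 4493 TPM with IL-13 and 371 without) and Ear2 (3628 and 609). The sum is therefore not a measure of cell identity. Of 10 proliferation genes 9 were higher with IL-13 and none lower, among them Mki67, with medians of 3.98 and 1.42 TPM. Among all tested genes 20% were higher. Birc5, 1 of the 9, was at 0.155 to 0.861 TPM without IL-13 and passed the filter only through groups with it. Their summed level was 523 to 622 TPM with IL-13 and 518 to 561 without. Pcna, with a median of 499 TPM both with and without IL-13, made up most of that sum. Markers of fibroblasts (3 of 5 in the tables) summed to 2.22 to 4.003 TPM with IL-13 and 4.34 to 6.32 without. For epithelium (2 of 5) the sums were 1.38 to 2.71 and 3.59 to 5.17. For endothelium (4 of 4) they were 6.44 to 12.02 and 8.45 to 12.4. Granulocyte markers (2 of 5, mostly S100a8) summed to 64.9 to 124 TPM with IL-13 and 129 to 169.5 without. All marker sums add TPM by gene span, so they compare libraries for 1 list and not 1 list with another. The share of a gene in a sum also depends on its span. The defining fibroblast gene Col1a1 and the endothelial gene Pecam1 had medians of 0 and 0.0145 TPM with IL-13 and 0 without, and lymphocyte markers were not analysed here. The part of proliferation or of other cells in the changes of the 9 genes was not tested. In bulk RNA, fewer cells of a type and less RNA per cell cannot be told apart.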

How the data were processed

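The 24 libraries (8 groups of 3, grouped by the treatment label) each had 1 table of TPM per gene, deposited by the authors. STAR and mm10 are named in the submitters' processing notes. The STAR version, the counting tool and the strand setting are not given in the sources used. The length in each table equals the gene span for all 17017 genes. In each library TPM times length fell on whole multiples of a single constant, to 0.05 reads, for 90.0% to 91.4% of values up to 20 reads (10% by chance), and reads were recovered from it. Separate animals or cultures are not stated for the libraries of a group. The p-values therefore reflect the spread of these libraries, which may be technical.

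A floor of 1 TPM in 3 or more libraries left 13215 genes, which were fitted on log2(TPM + 1) with limma-trend (limma 3.58.1, R 4.3.3), with 8 group means in 1 fit, 16 residual degrees of freedom and no covariates. Fold changes are on that scale and understate changes of low genes. In each of 16 comparisons p-values were adjusted by Benjamini-Hochberg over the 13215 genes, with calls at an adjusted p under 0.05. The fit was tested on simulated data. Coordinates are 1-based on mm10 from GENCODE M21, which held 16998 of the identifiers. Named were the 9 genes, every listed pathway gene that was called with Arg1, Arg2, Amd2, Paox and Myc, and the 3 genes nearest each in pattern with a mean of at least 5 TPM and a symbol that is not provisional (1 of these is not reported here). Dohh, Sat2, Max, Ahcy and Azin2 were named after their values were seen. The genes and lists were chosen with earlier results of these data known. Alternatives were a pseudocount of 0.1, no filter, median-ratio scaling, voom on recovered reads, the groups compared alone, leaving out each library, and leaving out together 3 libraries that had stood apart in earlier work on these data (untreated replicate 1, IL-17A replicate 2 and replicate 2 of all 3 cytokines).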

Additional observations from a re-analysis of the deposited data

Results flagged for a closer look

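In 3 genes the effect of IL-13 differed by a test of the difference between cells with and without IL-33 (the interaction averaged over IL-17A). They were Sat1, among the 9 polyamine genes tested, and Adi1 and Slc3a2, among the 28 connected genes tested. Of all 13215 tested genes, 472 (3.57%) were called in the same interaction. For Sat1 it was 0.20 on the log2 scale, as given above. For Adi1, a methionine salvage enzyme, it was 0.20 (SE 0.04, limma adjusted p = 0.00995): IL-13 changed it by -0.44 and -0.32 without IL-33 and by -0.14 and -0.23 with it. For Slc3a2, the heavy chain of several amino acid transporters, it was -0.195 (SE 0.03, limma adjusted p = 0.000766): IL-13 changed it by 0.24 and 0.26 without IL-33 and by 0.03 and 0.08 with it. Leaving out 1 library at a time kept the Adi1 value between 0.18 and 0.21 and the Slc3a2 value between -0.21 and -0.18. Dixon's gap test was not run, since a group held 3 libraries.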

How the results depend on the processing

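Odc1, Srm, Amd1 and Smox kept their direction and their side of the threshold in all 149 alternatives run on their 5 IL-13 comparisons, Sat1 in 143, Oaz2 in 142, Sms in 139, Azin1 in 136 and Oaz1 in 123. A fit of the groups compared alone called 5 of the 9 genes for IL-13 on untreated cells in place of 8, with fewer libraries behind the spread. Leaving out 1 library gave 0 to 1 genes called for IL-33 on IL-13 and for IL-33 on IL-13 with IL-17A, in each case Sat1 without replicate 1 of all 3 cytokines. Signs turned in values that were not called: leaving out 1 library gave Sms -0.023 to 0.120 for IL-13 on IL-17A (lowest without IL-17A replicate 1) and -0.018 to 0.106 on IL-33 with IL-17A (below 0 without replicates 1, at -0.006, and 3 of all 3 cytokines), Azin1 -0.016 to 0.094 there (lowest without replicate 3 of all 3 cytokines) and Ahcy -0.036 to 0.009 averaged (highest without replicate 2 of all 3 cytokines). With median-ratio scaling and voom Ahcy averaged 0.030 and 0.032, and Max 0.030 and 0.034. For these the cause was not tested. Among all genes called for averaged IL-13, 2644 were higher and 4079 lower (39.3% higher), against 3394 and 3421 (49.8%) with median-ratio scaling and 3463 and 3468 (50%) with voom. The fit of the groups compared alone gives no value for the averaged and interaction comparisons, which use all groups. No paired analysis was possible because no label ties a library of 1 group to a library of another, and replicate numbers here only follow the order of deposit. Depth limits Arg1 and Azin2, with a median of 4 recovered reads.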
